A study of Mus musculus with 12 samples.

Results

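The report covers 29 mouse genes known as transcriptional targets of p53, measured in the striatum of mice in which wig-1 was suppressed. The genes were chosen by name, with no threshold on their values, but with earlier results of these data known. Their shares beside those of all genes are therefore descriptions. Of the 29, 27 had an annotated probe and 20 were well measured, out of 10031 well measured genes on the array. Well measured means that at least 4 of the 12 arrays gave the probe a detection p-value under 0.01. Of the 20 measured genes, 19 were detected on all 12 arrays and Pmaip1 on 7, so that the filter did not favour the genes that were high in a single group. The remaining 7 with a probe fell below the filter (Mdm4, Btg2, Perp, Aen, Sesn2, Gtse1 and Eda2r). Bax and Gdf15 were not analysed here, since no probe of theirs was annotated in the tables used.

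The arrays came from 5-month-old BACHD mice, which carry a full-length mutant human huntingtin gene as a transgene on an FVB background. All 12 mice shared this genotype and age, and received a single injection into the striatum. A first group of 4 received PBS, a second group of 4 received an antisense oligonucleotide (ASO) against wig-1, and the last group of 4 received a negative control ASO. The study's text on male BACHD mice uses letter codes that match the names of the array columns, and gives these mice the highest of its ASO doses with collection at an earlier or a later week. Which week the arrayed mice came from is not given in the sources used here. There was no group of mice without the transgene, so every comparison lies within one disease model.

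p53 is a transcription factor that is kept low by the ubiquitin ligase Mdm2, itself a p53 target, and that accumulates when DNA is damaged or a cell is under oncogenic or oxidative stress. Its targets arrest the cell cycle, repair DNA, limit growth signalling or start the mitochondrial pathway of cell death. The gene wig-1, named Zmat3 in the mouse annotation, is a p53 target as well and encodes a zinc finger protein that binds RNA and has been linked to the stability of p53 mRNA. Neurons do not divide, but p53 and its targets are active in injured neurons and in glia. Trp53, the gene of p53, was not analysed here.

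Zmat3, the targeted transcript, was measured first. Its log2 signal was 8.57, 8.60, 8.37 and 8.44 in the 4 PBS mice and 8.48, 8.47, 8.53 and 8.31 in the 4 control ASO mice. In the 4 wig-1 ASO mice it was 6.89, 6.63, 6.77 and 5.95, so every treated mouse lay below every other mouse. Zmat3 fell by 1.93 on the log2 scale against PBS (SE 0.18), to 0.262 of the PBS signal, with adjusted p = 0.000842 in limma. Against control ASO it fell by 1.89 (SE 0.18, adjusted p = 0.00278 in limma). In tissue of mixed cells, fewer cells of a type and less RNA per cell cannot be told apart, here or in the results that follow.

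Cdkn1a encodes p21, the inhibitor of cyclin-dependent kinases through which p53 arrests the cell cycle, and it was the member with the largest difference. Because p53 binds a pair of half-sites, of 10 bases each and at most 13 bases apart, the RefSeq promoter windows (GRCm38.p6, 250 bases before to 50 after each annotated start) were searched for the p53 half-site. The half-site equals its own reverse complement in pattern, so both strands were covered. Windows of 22 of the 29 genes were present, and 10 of these genes (45.5%) held a half-site, beside 2582 of 27025 genes with a window (9.55%), a description of genes that were picked as known targets. A pair within the spacing was held by 1 of the 22, Cdkn1a, and by 20 of all genes (0.074%). The Cdkn1a pair lies before the upstream of its RefSeq starts, and that start is itself 2790 bases before the other start. The 250 bases before that upstream start, chr17:29090729-29090978 on the + strand, are shown because Cdkn1a was the gene of largest rise and its window is the one that holds a pair, with the 2 half-sites in capitals.
Cdkn1a: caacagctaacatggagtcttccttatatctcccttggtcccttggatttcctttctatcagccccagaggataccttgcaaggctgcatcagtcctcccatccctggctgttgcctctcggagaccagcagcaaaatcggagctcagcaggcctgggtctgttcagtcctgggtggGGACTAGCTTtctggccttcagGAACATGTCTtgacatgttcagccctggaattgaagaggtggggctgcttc
The half-sites start at positions -73 and -51 from the upstream start, with a spacer of 12 bases. The 10 bases after the second one match the half-site at 9 positions. For comparison, 30 bases around the single half-site of Mdm2, Ccng1, Gadd45a and Sesn1 are shown, with the half-site in capitals. These 4 genes are well-known targets whose array values are described further on and did not pass the test. Aen, Bax, Ei24, Gtse1 and Rps27l also held a half-site and are not shown. Trp53inp1, the other gene that passed against PBS, was among the 7 members with no window. Whether the sites relate to the array differences was not tested.
Mdm2: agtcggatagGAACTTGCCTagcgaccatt
Ccng1: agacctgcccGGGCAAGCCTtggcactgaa
Gadd45a: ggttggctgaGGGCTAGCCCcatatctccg
Sesn1: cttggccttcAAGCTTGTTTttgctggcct
They lie at chr10:117710925-117710954, chr11:40755452-40755481 and chr6:67037428-67037457, each on the - strand, and at chr10:41887256-41887285 on the + strand. A match of this kind describes the letters of the window and does not show that p53 bound there.

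Across the 20 measured genes, Cdkn1a and Trp53inp1 rose in wig-1 ASO mice against PBS and none fell, by limma with Benjamini-Hochberg adjustment over 17188 probes and a threshold of 0.05. This made 2 of 20 higher, beside 2.83% of all 10031 genes, and 0 of 20 lower, beside 0.977%. At an unadjusted p under 0.05, 5 were higher (Cdkn1a, Trp53inp1, Apaf1, Phlda3 and Rps27l), beside 10.5% of all genes, and Ddb2 alone was lower, beside 8.25%. All 4 wig-1 ASO mice lay above all 4 PBS mice for Cdkn1a and Trp53inp1, which was the case for 6.55% of all genes. The log2 differences ran from -0.38 to 1.24 with a median of 0.16, and 14 were above 0, beside a median of -0.01 and 48.1% above 0 over all genes. On simulated data of the same size the test recovered 26% of changes of 0.5 on the log2 scale and 66% of changes of 1, so differences of the size seen here can be missed with 4 mice a group. The same simulation also made 11 false calls, at probes with no planted change. Of the 11 genes with more than 1 well measured probe, all probes had the same sign in 10, and in Sesn1 they differed.

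**Figure D1:**
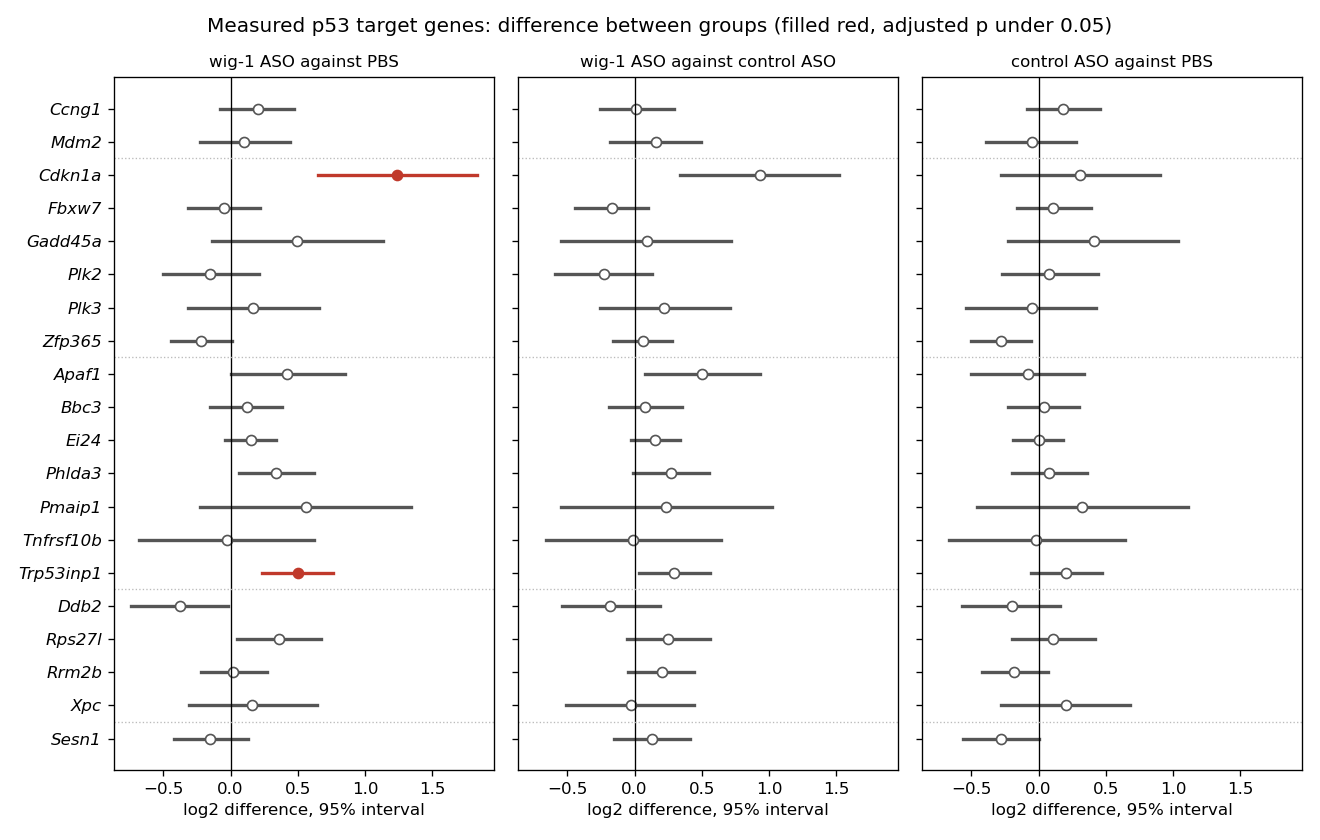
Log2 difference (point) with its 95% interval from limma (line) for the 20 measured p53 target genes, in each of the 3 comparisons between groups, with dotted lines between the roles. Cdkn1a (1.24) and Trp53inp1 (0.50) against PBS are filled as past the adjusted threshold, and no gene is filled in the other comparisons.

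Among the arrest and checkpoint genes, the brightest Cdkn1a probe (ILMN_2634083) read 5.26, 4.89, 4.80 and 5.11 in PBS mice, on the log2 scale. It read 5.57, 6.26, 6.12 and 7.06 in wig-1 ASO mice and 4.90, 5.52, 5.59 and 5.29 in control ASO mice. Every wig-1 ASO mouse exceeded every PBS mouse, while wig-1 ASO replicate 1 overlapped the control ASO mice. Cdkn1a rose by 1.24 against PBS (SE 0.27, 95% interval 0.65 to 1.83), which is 2.36-fold, with adjusted p = 0.0324 in limma. A two-sided exact permutation test of the same values gave p = 0.029, the smallest that 4 against 4 mice allow. The other probes, ILMN_2846775 and ILMN_2846776, had differences of 0.79 (SE 0.37, adjusted p = 0.293 in limma) and 1.07 (SE 0.44, adjusted p = 0.222 in limma), and the groups overlapped at both. Wig-1 ASO replicate 4 was the highest of the 12 mice at all 3 Cdkn1a probes.

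The call for Cdkn1a did not hold in every subset of the arrays. It stayed past the threshold in 5 of 12 fits that each left out 1 array, at 1.24 to 1.47. It missed the threshold without any single PBS mouse or without wig-1 ASO replicate 2, 3 or 4, at 0.97 to 1.32 with adjusted p from 0.0547 to 0.0909 in limma. Without the 4 mice of highest thalamic, hypothalamic and septal markers the difference was 1.30 with adjusted p = 0.317 in limma.

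Gadd45a, a stress protein that restrains entry into mitosis, read 5.74, 5.27, 5.29 and 5.38 on the log2 scale in PBS mice. It read 4.92, 6.22, 5.86 and 6.64 in wig-1 ASO mice and 5.90, 5.98, 5.69 and 5.72 in control ASO mice. Wig-1 ASO replicate 1 was the lowest of the 12 mice and replicates 2, 3 and 4 lay above all PBS mice, so the groups overlapped. The difference from PBS was 0.49 (SE 0.29, adjusted p = 0.413 in limma), and control ASO differed from PBS by 0.41 (SE 0.29, adjusted p = 0.795 in limma). Without wig-1 ASO replicate 1 the difference of Gadd45a from PBS was 0.82, with adjusted p = 0.0253 in limma. The other 4 genes of this role had differences between -0.22 and 0.17. They were the Polo-like kinases Plk2 and Plk3, the cyclin E ubiquitin ligase subunit Fbxw7, and Zfp365, a zinc finger gene.

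**Figure D2:**
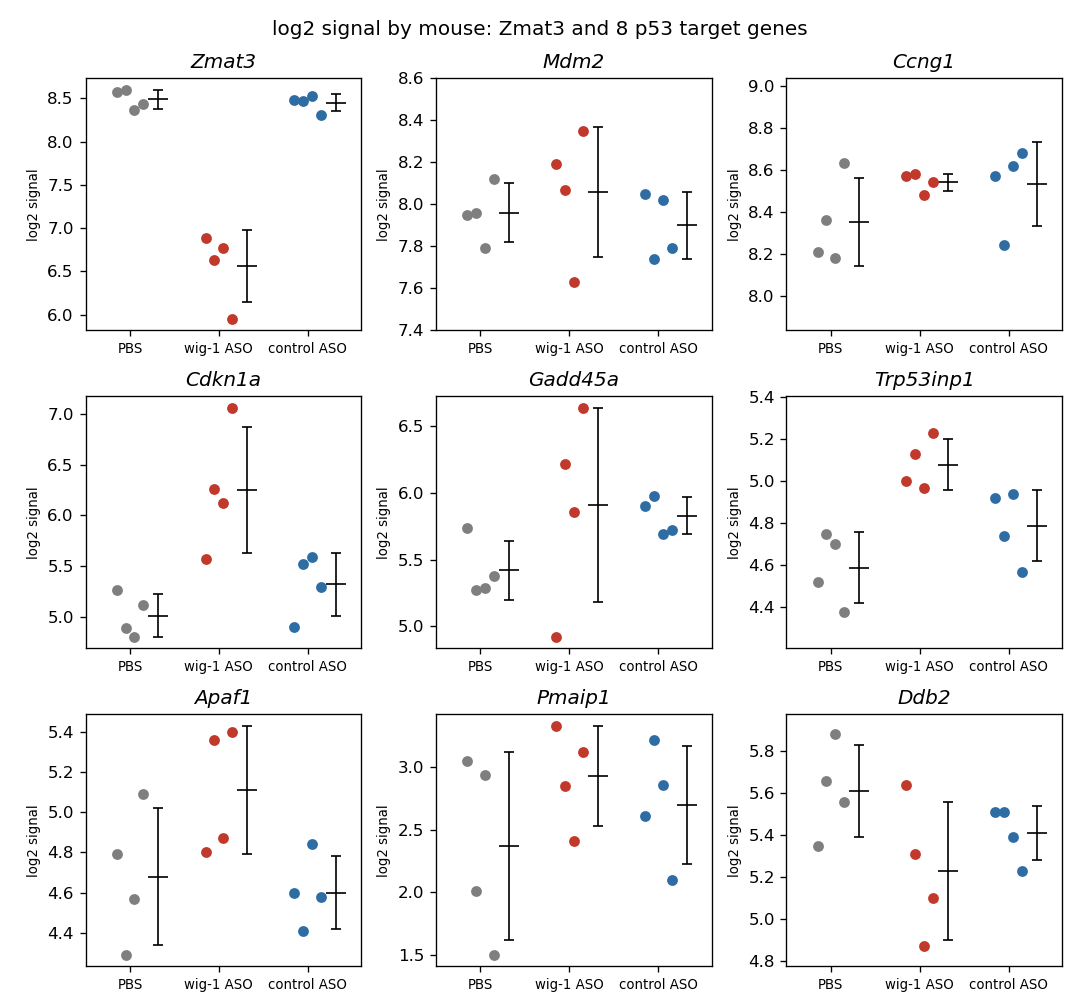
Log2 signal of the brightest well measured probe in each of the 12 mice (points, replicates 1 to 4 from left to right) with the mean and SD of each group of 4 (black), for Zmat3 and 8 p53 target genes. The vertical scale differs between panels and does not start at 0. Wig-1 ASO mice lie below all others for Zmat3 (5.95 to 6.89) and above all PBS mice for Cdkn1a (5.57 to 7.06) and Trp53inp1 (4.97 to 5.23).

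Of the genes that feed back on p53, Mdm2 and Ccng1 were measured. Mdm2, the ubiquitin ligase that degrades p53, read 7.95, 7.96, 7.79 and 8.12 on the log2 scale in PBS mice, 8.19, 8.07, 7.63 and 8.35 in wig-1 ASO mice, and 8.05, 7.74, 8.02 and 7.79 in control ASO mice. The groups overlapped, and the difference from PBS was 0.10 (SE 0.15, 95% interval -0.23 to 0.44, adjusted p = 0.785 in limma). A dimmer Mdm2 probe (ILMN_2850753) read 6.80, 6.60, 6.57 and 6.81 in PBS mice and 6.87, 7.08, 6.85 and 7.17 in wig-1 ASO mice. In control ASO mice this probe read 6.84, 6.78, 6.85 and 6.91. The wig-1 ASO and PBS groups did not overlap at it, but the difference of 0.30 (SE 0.10, adjusted p = 0.156 in limma) did not pass. From control ASO its difference was 0.15 (SE 0.10, adjusted p = 0.591 in limma), and those groups overlapped. Ccng1, cyclin G1, which recruits a phosphatase to Mdm2, read 8.21, 8.36, 8.18 and 8.63 in PBS mice, 8.57, 8.58, 8.48 and 8.54 in wig-1 ASO mice, and 8.57, 8.24, 8.62 and 8.68 in control ASO mice. PBS replicate 4 was above all wig-1 ASO mice. The difference of Ccng1 from PBS was 0.20 (SE 0.13, 95% interval -0.08 to 0.47, adjusted p = 0.46 in limma), and from control ASO it was 0.01.

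Among the cell death genes, 1 of the 7 measured rose against PBS, beside 2.83% of all genes. Of the 7, 6 lay above 0 with a median difference of 0.34, beside 48.1% and -0.01 over all genes. Trp53inp1, which promotes p53 phosphorylation and autophagy, read 4.52, 4.75, 4.70 and 4.38 in PBS mice, 5.00, 5.13, 4.97 and 5.23 in wig-1 ASO mice, and 4.92, 4.74, 4.94 and 4.57 in control ASO mice. Every wig-1 ASO mouse exceeded every mouse of both other groups. Trp53inp1 rose by 0.50 on the log2 scale against PBS (SE 0.12, 1.41-fold, adjusted p = 0.049 in limma). This value stood at the edge of the threshold. It passed in 2 of 12 fits that each left out 1 array (wig-1 ASO replicate 1 or control ASO replicate 4), and in the other 10 the difference was 0.43 to 0.55 with adjusted p from 0.0605 to 0.14 in limma.

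The adaptor Apaf1, which assembles the apoptosome, read 4.79, 4.29, 4.57 and 5.09 in PBS mice, 4.80, 5.36, 4.87 and 5.40 in wig-1 ASO mice, and 4.60, 4.41, 4.84 and 4.58 in control ASO mice. Replicates 2 and 4 of the wig-1 ASO group were above every other mouse, and the groups overlapped. Its difference was 0.42 from PBS (SE 0.19, adjusted p = 0.276 in limma) and 0.50 from control ASO (SE 0.19, adjusted p = 0.267 in limma). Pmaip1 (Noxa), a BH3-only protein that opens mitochondria to cell death, was close to background at 3.05, 2.01, 2.94 and 1.5 in PBS mice, 3.33, 2.85, 2.41 and 3.12 in wig-1 ASO mice, and 2.61, 3.22, 2.86 and 2.10 in control ASO mice. It was detected on 2, 3 and 2 of the 4 arrays of these groups, and its difference from PBS of 0.56 had an SE of 0.36 (adjusted p = 0.459 in limma). The other BH3-only gene, Bbc3 (Puma), differed by 0.12, the death receptor Tnfrsf10b by -0.03 and Ei24, an endoplasmic reticulum protein, by 0.15. Phlda3, an inhibitor of the kinase Akt, differed by 0.34 from PBS at both of its probes (SE 0.13 and 0.18, adjusted p = 0.181 and 0.34 in limma), and 3 of the 4 wig-1 ASO mice were above all PBS mice at its brighter probe. Without wig-1 ASO replicate 1 the difference of Phlda3 was 0.44, with adjusted p = 0.048 in limma.

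Of the 4 genes of DNA repair and nucleotide supply, none passed the test. Ddb2, which recognises ultraviolet damage for excision repair, read 5.35, 5.66, 5.88 and 5.56 in PBS mice, 5.64, 5.31, 4.87 and 5.10 in wig-1 ASO mice, and 5.51, 5.51, 5.39 and 5.23 in control ASO mice. Replicates 2, 3 and 4 of the wig-1 ASO group were below all PBS mice and replicate 1 was not. The difference of -0.38 from PBS (SE 0.17, adjusted p = 0.258 in limma) was the lowest of the 20 genes, and a dimmer Ddb2 probe was detected on 3 of 4 PBS arrays and 1 of 4 wig-1 ASO arrays. Rps27l, a ribosomal protein relative, differed by 0.36 (SE 0.14, adjusted p = 0.207 in limma). The excision repair gene Xpc differed by 0.16, and Rrm2b, the p53-inducible subunit of ribonucleotide reductase, by 0.02. Of the stress response genes only Sesn1, an inhibitor of growth signalling through mTOR, was measured, with a difference of -0.15 at its brightest probe and 0.54 at its dimmest (SE 0.13 and 0.45).

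**Figure D3:**
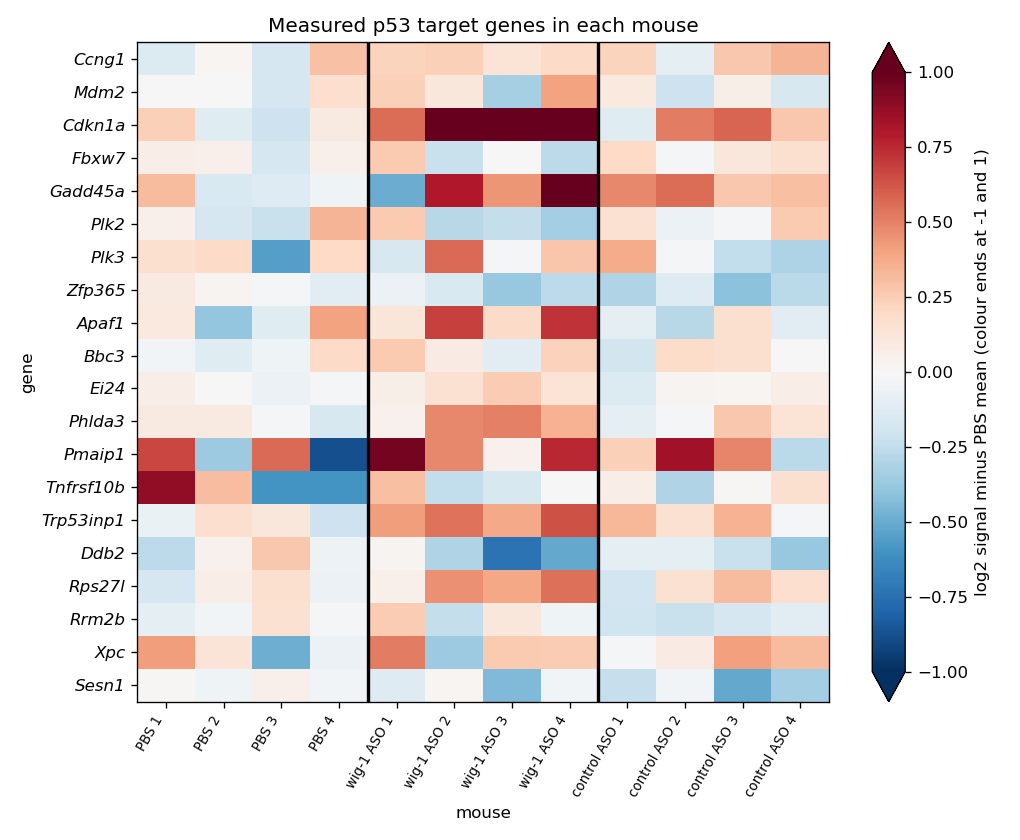
Log2 signal minus the mean of the 4 PBS mice for each of the 20 measured genes (lines, ordered by role) in each of the 12 mice (columns, groups divided by black lines), with colours ending at -1 and 1. Cdkn1a is above the PBS mean in all 4 wig-1 ASO mice (0.56 to 2.05), and Gadd45a, Apaf1 and Ddb2 vary among the treated mice.

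Against control ASO, none of the 20 passed the test in either direction, beside 0.788% of all genes higher and 0.289% lower by the same limma fit, and the smallest adjusted p was 0.145, that of Cdkn1a. At an unadjusted p under 0.05, 3 were higher (Apaf1, Cdkn1a and Trp53inp1), beside 8.23% of all genes, and 0 were lower, beside 6.45%. Cdkn1a differed by 0.93 (SE 0.27, 95% interval 0.34 to 1.52, two-sided exact permutation p = 0.057), and without wig-1 ASO replicate 1 by 1.16 with adjusted p = 0.0312 in limma. Trp53inp1 differed by 0.29 (SE 0.12, 95% interval 0.03 to 0.56) with adjusted p = 0.307 in limma. It was the only one of the 20 for which all wig-1 ASO mice were above all control ASO mice, as for 4.74% of all genes. The median of the 20 differences was 0.14, beside -0.01 over all genes.

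In control ASO against PBS, none passed, and none of the 10031 genes did either (0% higher and 0% lower). At an unadjusted p under 0.05, 0 were higher, beside 3.13% of all genes, and Zfp365 was lower, beside 3.16%. Zfp365 and Rrm2b had no overlap between groups with control ASO lower, as for 2.52% of all genes. Zfp365 read 11.62, 11.56, 11.52 and 11.42 in PBS mice and 11.23, 11.40, 11.12 and 11.26 in control ASO mice, a difference of -0.28 (SE 0.10, adjusted p = 0.707 in limma). These are values of its brightest probe. At its dimmer probes the groups overlapped, with differences of -0.05 (ILMN_2966034, SE 0.12) and -0.45 (ILMN_2474128, SE 0.27). Cdkn1a differed by 0.31 (SE 0.27, 95% interval -0.28 to 0.90), so its mean in control ASO mice lay between those of the other groups. The comparisons with PBS and with control ASO share the wig-1 ASO mice, and they are given side by side for that reason.

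Within the wig-1 ASO group, the mice differed in how far the targets moved. Replicate 1 had the lowest Cdkn1a (5.57) and the highest Zmat3 (6.89) of the 4, and replicate 4 had the highest Cdkn1a (7.06) and the lowest Zmat3 (5.95). The number of the 20 genes above their PBS mean was 16, 13, 11 and 13 in replicates 1 to 4, so the mouse with the lowest Cdkn1a had the most genes above that mean. In PBS mice the numbers were 13, 10, 6 and 8, and in control ASO mice 9, 8, 14 and 10, which overlaps the treated range.

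Genes of other cell types moved in the same mice. Relative to the PBS mean, 9 genes of reactive astrocytes averaged 0.86, 2.11, 1.67 and 2.65 on the log2 scale in the treated mice (replicates 1 to 4), while control ASO mice had 0.12 to 0.73. The order of the 4 wig-1 ASO mice was the same in this list as in Cdkn1a, and Zmat3 had the reverse order. The 4 control ASO mice did not share an order. In replicates 1 to 4 their Cdkn1a was 4.90, 5.52, 5.59 and 5.29, and their list means were 0.63, 0.23, 0.73 and 0.12. Of the 9 genes, 7 rose against PBS in limma, among them Gfap, Timp1, Lcn2 and Serpina3n, beside 2.83% of all genes. Against control ASO 3 of the 9 rose, beside 0.788% of all genes. The summed signal of the 9 was 1747 to 2201 in PBS, 3309 to 9788 in wig-1 ASO and 1902 to 2946 in control ASO mice. Of 12 microglia markers, 9 rose against PBS, including the complement genes C1qa, C1qb and C1qc and Laptm5, and 5 of the 12 rose against control ASO. The microglia list averaged 0.86, 1.85, 1.43 and 1.66 in replicates 1 to 4 of the treated mice, where replicate 2 and not replicate 4 was the highest. The summed microglia signal was 1877 to 2141 in PBS, 3542 to 7089 in wig-1 ASO and 1980 to 3224 in control ASO mice. Of 4 monocyte and neutrophil markers, 2 rose against PBS (Lyz2 and Plac8), and against control ASO 1 rose (S100a9). The summed signal of the 4 was 57.2 to 133 in PBS, 305 to 2454 in wig-1 ASO and 133 to 342 in control ASO mice. The wig-1 ASO and control ASO ranges overlapped. None of 10 markers of astrocytes in general, 9 of oligodendrocytes and 7 of endothelium passed. The part of these cells in the Cdkn1a and Trp53inp1 differences was not tested.

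Markers of medium spiny neurons, the projection neurons of the striatum, did not pass in any of 16 genes against PBS. The median difference was -0.57, and 0 of the 16 were above 0. At an unadjusted p under 0.05 there were 10, beside 8.25% of all genes lower. Against control ASO the median was -0.24, with 1 gene at that limit, beside 8.23% of all genes higher and 6.45% lower. In control ASO against PBS the median was -0.32, with 3 genes, beside 3.13% higher and 3.16% lower. The list of these markers averaged 0.03, -0.92, -0.71 and -0.50 in wig-1 ASO mice. The control ASO mice had -0.52, -0.16, -0.40 and -0.05. Genes typical of thalamus, hypothalamus and septum, which border the striatum, averaged 1.31 and 1.72 in wig-1 ASO replicates 2 and 3 and 1.36 and 1.05 in control ASO replicates 1 and 3, and -0.46 to 0.27 in the other 8 mice. Of these 11 markers, Rora passed the test against PBS. Replicate 4 of the wig-1 ASO group, the mouse with the highest Cdkn1a, was at -0.46. The part of neighbouring tissue in the Cdkn1a difference was not tested. Of 9 markers of striatum looked for, 7 had a probe and all 7 were detected on all 12 arrays, and the number of probes detected ran from 15228 to 17198 per array.

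**Figure D4:**
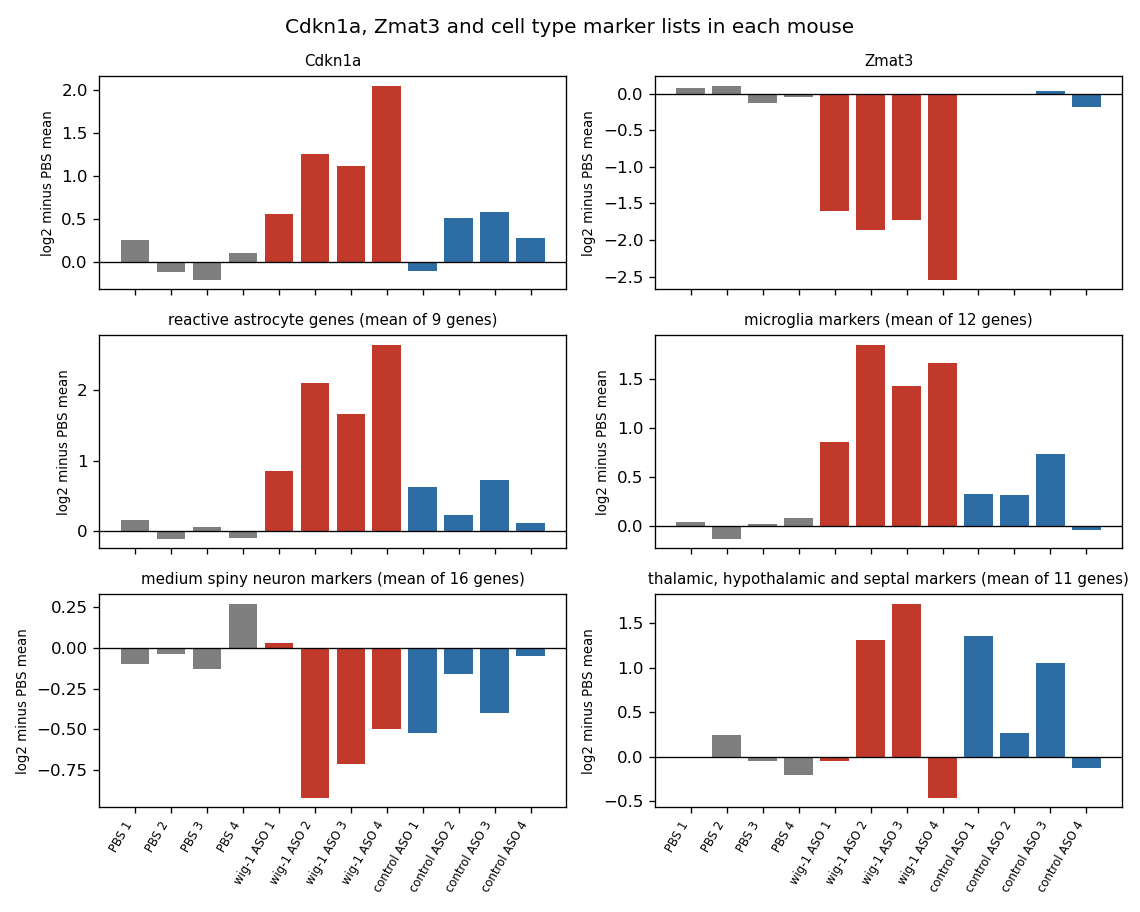
Difference from the PBS mean on the log2 scale in each of the 12 mice (bars from 0) for Cdkn1a, Zmat3 and the mean of 4 lists of cell type markers, with vertical scales that differ between panels. Cdkn1a and the reactive astrocyte list are highest in wig-1 ASO replicate 4 (2.05 and 2.65), and the thalamic, hypothalamic and septal list in wig-1 ASO replicate 3 (1.72).

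The wider p53 network was read from lists that do not overlap the 29 genes. Of 34 genes of the p53 family and its upstream regulators, 22 were measured and none passed in any of the 3 comparisons, with a median difference from PBS of -0.03. The smallest adjusted p in wig-1 ASO against PBS was 0.145 in limma for Cop1, a ubiquitin ligase of p53, which differed by -0.26 (SE 0.09) at its brightest probe. The other Cop1 probes did not share a sign, at -0.58 (ILMN_1233127, SE 0.16, adjusted p = 0.0678 in limma) and 0.24 (ILMN_2629120, SE 0.40, adjusted p = 0.814 in limma). The kinase Cdk5 (-0.22), the p53-binding protein Trp53bp1 (-0.20) and the kinase Hipk2 (-0.16) followed, with adjusted p of 0.323, 0.401 and 0.618 in limma. Of 56 other p53 target genes, 38 were measured, 1 rose and 1 fell against PBS, beside 2.83% and 0.977% of all genes, with a median difference of 0.08. The one that fell was Zmat3, the target of the ASO itself.

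The one that rose was Nupr1, a nuclear protein induced by cellular stress. It read 7.15, 7.02, 7.43 and 6.87 in PBS mice, 7.65, 8.63, 8.38 and 9.36 in wig-1 ASO mice, and 6.94, 7.34, 7.33 and 7.34 in control ASO mice. The wig-1 ASO mice were above all others, and replicate 4 was again the highest and replicate 1 the lowest of the treated mice. Of all genes, 6.55% had all wig-1 ASO mice above all PBS mice, and 4.74% above all control ASO mice. Nupr1 rose by 1.38 on the log2 scale against PBS (SE 0.29, 2.61-fold, adjusted p = 0.028 in limma), and its difference of 1.27 from control ASO had adjusted p = 0.0681. The call for Nupr1 held in 5 of 12 fits that each left out 1 array, at 1.38 to 1.67. It was lost without any single PBS mouse or without wig-1 ASO replicate 2, 3 or 4, at 1.10 to 1.49 with adjusted p from 0.0521 to 0.0866 in limma. Tnfaip8 (0.53, adjusted p = 0.0621 in limma) and Cd82 (0.58, adjusted p = 0.0638 in limma) came next, and all wig-1 ASO mice were above all PBS mice for both, as for 6.55% of all genes. For Cd82, 3 control ASO mice were above all PBS mice too. The differences from control ASO were 0.61 for Tnfaip8 and 0.28 for Cd82 (adjusted p = 0.0654 and 0.45 in limma).

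The 7 genes below the filter had no level that could be compared as a fold. Gtse1, a protein of dividing cells that moves p53 out of the nucleus, was detected by its most often detected probe on wig-1 ASO replicates 2, 3 and 4 and on none of the other 9 arrays. The log2 signal of this probe was 1.25, 3.07, 2.95 and 2.90 in the wig-1 ASO mice, 1.10 to 1.90 in PBS mice and 1.17 to 2.06 in control ASO mice. The other Gtse1 probes, ILMN_2908065 and ILMN_1226369, were detected on 1 and 0 arrays. Of 7 measured proliferation genes none passed the test against PBS, and their median difference was 0.72. Eda2r, a receptor of the tumour necrosis factor family, was detected on 1 PBS array and 2 control ASO arrays and on no wig-1 ASO array. Btg2, Perp, Aen, Sesn2 and Mdm4 were detected on at most 2 of 12 arrays by any of their probes.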

How the data were processed

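Total RNA from striatum was labelled and hybridized to MouseWG-6 v2 BeadChips of Illumina, each mouse on its own array, with 4 arrays in each of 3 groups named by the labels. The deposited signal intensities had been normalized between arrays by the authors, since all 12 arrays held the same sorted set of 45281 values, from 2 upwards. The deposited log2 values equal log2 of these intensities. The deposited detection p-values, 1 per probe and array, were used as a filter (p under 0.01 on at least 4 arrays), which kept 17188 probes. The authors named the packages lumi and siggenes, and their steps within lumi are not given in the sources used here.

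Probes were named by the platform's gene symbols: 34885 had 1 symbol, 18 had several and 10378 had none, and only those with 1 were named. For each gene the kept probe with the highest mean signal was used. Log2 signals, with no offset, were fitted in limma 3.58.1 (R 4.3.3) with 3 group means on all 12 arrays, and p-values were adjusted by Benjamini-Hochberg over all kept probes. Single genes were also compared by an exact permutation test over mice. The number of arrays limits the precision. Tested on simulated data, the fit recovered 2%, 26%, 66% and 94% of planted log2 changes of 0.25, 0.5, 1 and 2 in wig-1 ASO against PBS over 17188 probes. These were 1, 13, 33 and 47 of 50 planted at each size, and 11 probes with no planted change were called as well.

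Full values were given for members past the test, the 6 of largest difference from PBS, Cdkn1a, Mdm2, Ccng1 and Zmat3. Of each other list, up to 4 genes of smallest adjusted p were named, with values by mouse for Nupr1, which passed. Bax and Trp53, which the same rule names, and Gdf15 were not analysed here. The members and lists were chosen with earlier results of these data known. Same-numbered replicates did not pair the mice: over 12 same-numbered pairs the correlation of deviations ran from -0.135 to 0.126, and 1 was over 0.1. Alternatives were other filters, scalings, an offset of 16, neqc, array weights, a trended prior, the replicate block, fewer arrays, and the study's own limits. A slide block was not run because no slide was named. Promoter sequences are from RefSeq (GRCm38.p6).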

Additional observations from a re-analysis of the deposited data

Results flagged for a closer look

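In 2 of 63 groups of 4 mice examined (21 genes in 3 groups), 1 mouse lay far from the other 3 by Dixon's test at its 95% critical value for 4 samples. Chance marks about 1 in 20 such groups. Both concerned PBS replicate 3. Its Fbxw7 log2 signal was 9.25, beside 9.47 to 9.49 in the other PBS mice, and its Plk3 log2 signal was 4.48, beside 5.19 to 5.23. Neither gene passed the test in any comparison.

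Gtse1 fell below the detection filter and entered no comparison, but 3 of 4 wig-1 ASO arrays detected it and 0 of 4 arrays did in each of the other groups.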

How the results depend on the processing

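No call of a member changed sign under any alternative. Of 1437 comparisons of a single member with its main value, 1356 kept their direction and side of the threshold, 30 lost the threshold, 3 gained it and 48 changed sign, none of these 48 past the test. Only a call can lose the threshold, and the calls were Cdkn1a and Trp53inp1 against PBS. Cdkn1a was not past in 7 of 12 fits without 1 array and in 5 of 12 other alternatives. Trp53inp1 was not past in 10 of 12 and 8 of 12. The 2 members that rose against PBS became 0 with no detection filter, with the replicate block and with only the 8 arrays of the 2 groups compared. They became 1 with an offset of 16, neqc, array quality weights, trended and robust moderation, and the study's own limits (Cdkn1a in each), and 1 with the mean of kept probes (Trp53inp1). Leaving out 1 array gave 0 to 4 against PBS, the 4 (without wig-1 ASO replicate 1) adding Gadd45a and Phlda3, and 0 to 1 against control ASO.

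The 2 other p53 targets called against PBS became 1 with no filter, the replicate block or 8 arrays, 4 when detected on all 12 arrays, with the offset or neqc, 5 with array weights, 6 with trended moderation, and 1 to 5 without 1 array. The 1 called against control ASO became 3 when detected on all 12 arrays, with the offset, neqc, weights, trended moderation or the study's limits, and 1 to 3 without 1 array.

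All genes called against PBS, 382, became 171 with no filter, 598 with the offset, 579 with neqc, 577 with weights, 635 with trended moderation, 154 with the replicate block, 72 with 8 arrays, and 106 to 785 without 1 array. The 108 against control ASO became 17, 290, 282, 283, 271, 16 and 6 in the same order, 174 when detected on all 12 arrays, and 4 to 373 without 1 array. With the replicate block, 1 gene was called in control ASO against PBS, beside 0.

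Without the 4 mice of high thalamic, hypothalamic and septal markers (chosen after seeing the data), 0 members and 0 other targets passed in either comparison, and 1 and 0 genes in all. Zmat3 was then -2.07 against PBS and -1.97 against control ASO, with adjusted p = 0.0661 and 0.282 in limma, and 2 mice a treated group remained. The cause of these changes was not tested. A slide block was not run. The median of the members ran from 0.09 to 0.20 against PBS without 1 array, and Zmat3 from -2.04 to -1.73.

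The 48 changes of sign were of small log2 differences. Without 1 array, wig-1 ASO against PBS ran from -0.16 to 0.01 for Fbxw7, -0.01 to 0.28 for Plk3, -0.05 to 0.11 for Rrm2b, -0.23 to 0.27 for Tnfrsf10b and 0.00 to 0.34 for Xpc. Against control ASO it ran from -0.08 to 0.07 for Ccng1, -0.16 to 0.42 for Gadd45a, -0.12 to 0.06 for Tnfrsf10b and -0.15 to 0.14 for Xpc. Control ASO against PBS ran from -0.21 to 0.06 for Apaf1, -0.01 to 0.11 for Bbc3, -0.03 to 0.04 for Ei24, -0.11 to 0.00 for Mdm2, -0.24 to 0.04 for Plk3 and -0.22 to 0.28 for Tnfrsf10b. The mean of kept probes gave 0.10 for Sesn1 against PBS, -0.12 for Ccng1 against control ASO, and 0.08 for Ei24 and 0.05 for Mdm2 in control ASO against PBS. Cyclic loess gave 0.01 and 0.02 for Tnfrsf10b against PBS and control ASO, and array weights gave 0.02 for Apaf1 in control ASO against PBS. Without the 4 mice, Tnfrsf10b was 0.15 against PBS. Against control ASO it was 0.22, Xpc 0.18, Gadd45a -0.07 and Ddb2 0.00, and Ei24 was 0.05 in control ASO against PBS.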
